A study of Mus musculus with 4 samples.

Results

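The p53 target genes described here are those with a named probe set among 10 symbols chosen for their known regulation by p53. The choice was made with earlier results of these data known. Of the 10, 5 were measured: GDF15, SESN1, TP53I3, RRM2B and TP53INP1. MDM2, BTG2, PPM1D, ZMAT3 and PLK2AP had no named probe set and were not analysed here, so the feedback inhibitors MDM2 and PPM1D are outside these results. The 5 measured genes are part of 14884 named genes, and each had 1 named probe set. The arrays compared untreated SW620 cells with SW620 cells given F5446, described in the labels as an inhibitor selective for the histone methyltransferase SUV39H1, at 50 nM for 2 days. There were 2 arrays a group, all of cells grown in RPMI medium with serum. SW620 is an established human colon carcinoma line, taken here as a line with mutant p53. The series calls the 2 arrays of a group biological replicates but names no separate cultures, and the spread behind each p-value may therefore be technical.

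p53 is a transcription factor that is stabilised when DNA is damaged or cells are otherwise stressed. It binds DNA as a tetramer and switches on genes of cell cycle arrest, apoptosis, DNA repair and metabolism, while MDM2 marks it for degradation. Indirectly, through the CDK inhibitor p21 and the DREAM complex, active p53 also lowers the expression of cell cycle genes. Many p53 targets also have other activators. The activity of the pathway in SW620 cells was not measured here.

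The p53 target genes measured did not move as a block after F5446. GDF15 rose 3.88-fold and TP53I3 fell 1.53-fold, while SESN1, RRM2B and TP53INP1 did not pass the test. Thus 1 of 5 was higher and 1 of 5 lower at an adjusted p under 0.05, where 18.2% of all named genes were higher and 22.7% lower (40.9% in either direction). The median log2 fold change of the 5 was -0.03, the value of RRM2B, against -0.05 over all named genes. With 1 array left out it ran from -0.14 without F5446 replicate 2 to 0.082 without F5446 replicate 1. It was 0.10 with each array centred and 0.11 after quantile normalization, against 0.078 and 0.02 over all named genes. The deposited table does not show whether the arrays were scaled to a common total, so a change in total RNA per cell, or in the share of cells that express a gene, cannot be told apart from a change in 1 transcript. Centring each array on the median of its named genes moved all log2 fold changes upward by 0.13 and turned the split of calls over all named genes from 2714 higher and 3372 lower to 3420 and 2735. The calls of the 5 genes were the same after it.

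GDF15 encodes a secreted stress cytokine of the TGF-beta superfamily, which acts through a receptor in the hindbrain and is also induced by the integrated stress response. Its log2 signal was 8.13 and 8.09 in the control arrays and 10.13 and 10.00 in the F5446 arrays. Both treated arrays lay far above both control arrays, with a gap of at least 1.87 between the groups against gaps of 0.04 and 0.13 within them. The group means were 8.11 ± 0.026 and 10.07 ± 0.091 (SD, n = 2 each). The log2 fold change was 1.96 ± 0.07 (SE; 95% confidence interval 1.80 to 2.12; limma adjusted p = 1.01e-07). GDF15 ranked 166 among the 14884 genes by size of rise.

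TP53I3, also known as PIG3, encodes an oxidoreductase linked to reactive oxygen species and the damage response. Its log2 signal was 7.43 and 7.45 in the control arrays and 6.80 and 6.84 in the F5446 arrays. The treated arrays lay below the controls, and the groups were separated by at least 0.58 while arrays of a group differed by at most 0.04. The group means were 7.44 ± 0.019 and 6.82 ± 0.031 (SD, n = 2 each). The log2 fold change was -0.62 ± 0.09 (SE; 95% confidence interval -0.83 to -0.41; limma adjusted p = 0.00053). The direction of TP53I3 was thus the opposite of that of GDF15 in the same cells. With each array centred the log2 fold change of TP53I3 was -0.49, still past the threshold.

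SESN1 encodes sestrin 1, a stress protein that restrains the growth kinase mTORC1 and limits oxidative damage. Its log2 signal was 6.21 and 5.87 in the control arrays and 6.27 and 6.23 in the F5446 arrays. Both treated arrays were above both controls, but by only 0.02 at the nearest pair, and the control arrays differed from each other by 0.34. Such separation was common: the groups did not overlap at 66.2% of all named genes, and at 4 of these 5. The log2 fold change of SESN1 was 0.21 ± 0.14 (SE; 95% confidence interval -0.11 to 0.53; limma adjusted p = 0.30). It depended on the control array used, at 0.38 without control replicate 1 and 0.04 without control replicate 2, with an adjusted p above the threshold in both cases. With the arrays centred it was 0.34 (adjusted p = 0.093) and after quantile normalization 0.37 (adjusted p = 0.060).

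RRM2B encodes p53R2, the ribonucleotide reductase subunit that supplies deoxynucleotides for repair and for mitochondrial DNA outside S phase. Its log2 signal was 6.72 and 6.65 in the control arrays and 6.55 and 6.77 in the F5446 arrays. The treated arrays lay on either side of both controls, so the groups overlapped. The log2 fold change was -0.03 ± 0.12 (SE; 95% confidence interval -0.29 to 0.24; limma adjusted p = 0.90), an interval that leaves out a 2-fold change either way. It was 0.10 with the arrays centred and 0.11 after quantile normalization, so its sign was not settled.

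TP53INP1 encodes a nuclear and autophagy protein that promotes p53 phosphorylation and cell death under stress. Its log2 signal was 4.57 and 4.66 in the control arrays and 4.35 and 4.30 in the F5446 arrays. The treated arrays were both lower, by at least 0.22, but the gene was dim. Only the control arrays exceeded 4.43, the median over all probe sets, so a change in its transcript may be larger than the one measured. The log2 fold change was -0.29 ± 0.15 (SE; 95% confidence interval -0.64 to 0.06; limma adjusted p = 0.19), and -0.16 with the arrays centred (adjusted p = 0.47). The other 4 genes were above this limit on every array.

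**Figure D1:**
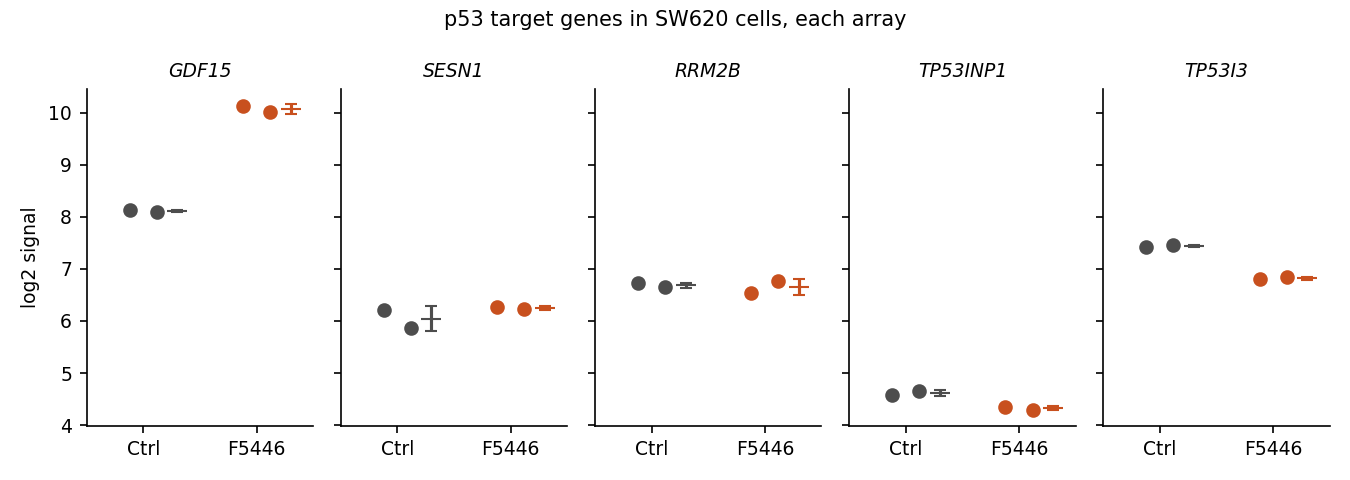
Log2 signal of the 5 measured p53 target genes on each array (points; grey, untreated; orange, F5446), with the group mean and SD of 2 arrays beside them. GDF15 lies near 8.1 in untreated and 10.1 in treated cells, TP53I3 is lower in both treated arrays, and the other 3 genes differ by 0.29 or less between group means.

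**Figure D2:**
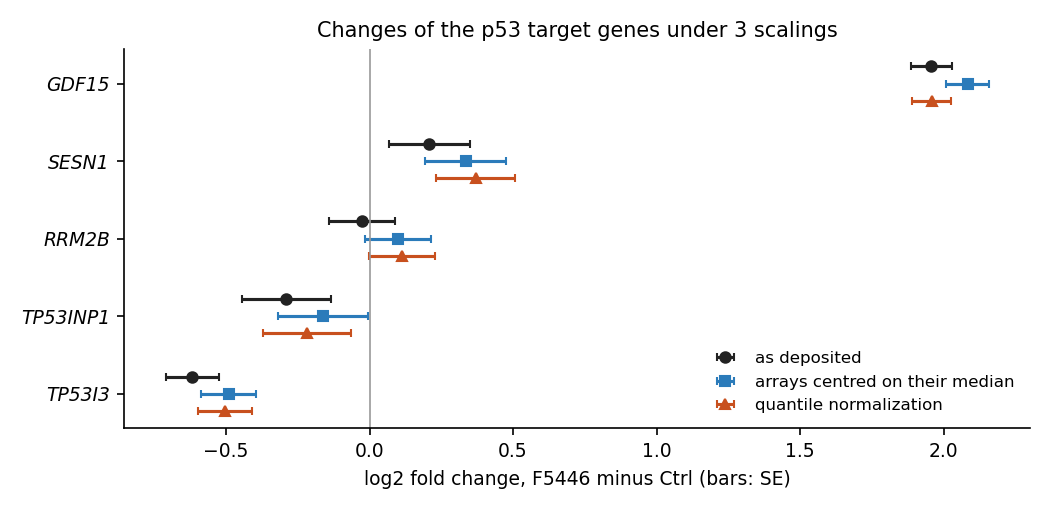
Log2 fold change (F5446 minus control; bars, SE of the limma fit) of the 5 genes with the values as deposited, with each array centred on its median and after quantile normalization. GDF15 stays near 2 and TP53I3 below 0 in each, while RRM2B lies on either side of 0.

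Members of the same gene families were set beside these genes. Sestrin 2 (SESN2), itself a p53 target that is also induced by the integrated stress response, read 6.69 and 6.36 in the control arrays and 9.67 and 9.59 in the F5446 arrays, a log2 fold change of 3.10 ± 0.11 (SE, limma adjusted p = 9.89e-08). Sestrin 3 (SESN3), a target of FOXO factors, read 8.06 and 7.98 against 7.08 and 7.21, a fall of 1.83-fold (limma adjusted p = 5.44e-05). The sestrins thus moved in different directions, SESN2 higher, SESN3 lower and SESN1 without a call. Whether the changes differ between these genes was not tested.

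Next to RRM2B, both subunits of the S-phase ribonucleotide reductase fell. RRM1, the large subunit, read 10.39 and 10.38 in control arrays and 8.65 and 8.76 in F5446 arrays (log2 fold change -1.68 ± 0.06, SE). RRM2, the small subunit that is made in S phase, read 9.62 and 9.51 against 6.87 and 6.92 (log2 fold change -2.67 ± 0.08, SE). The interval of RRM2B, from -0.29 to 0.24, holds neither value. MDM4, the relative of MDM2 that blocks the activation domain of p53, read 7.90 and 7.71 against 9.25 and 9.04 and rose 2.54-fold (limma adjusted p = 5.49e-06). GDF11, a TGF-beta superfamily member like GDF15, fell 3.48-fold. TP53INP2, the relative of TP53INP1 that acts in autophagy, had a log2 fold change of 0.02 ± 0.12 (SE, limma adjusted p = 0.93) and is named after its values were seen.

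**Figure D3:**
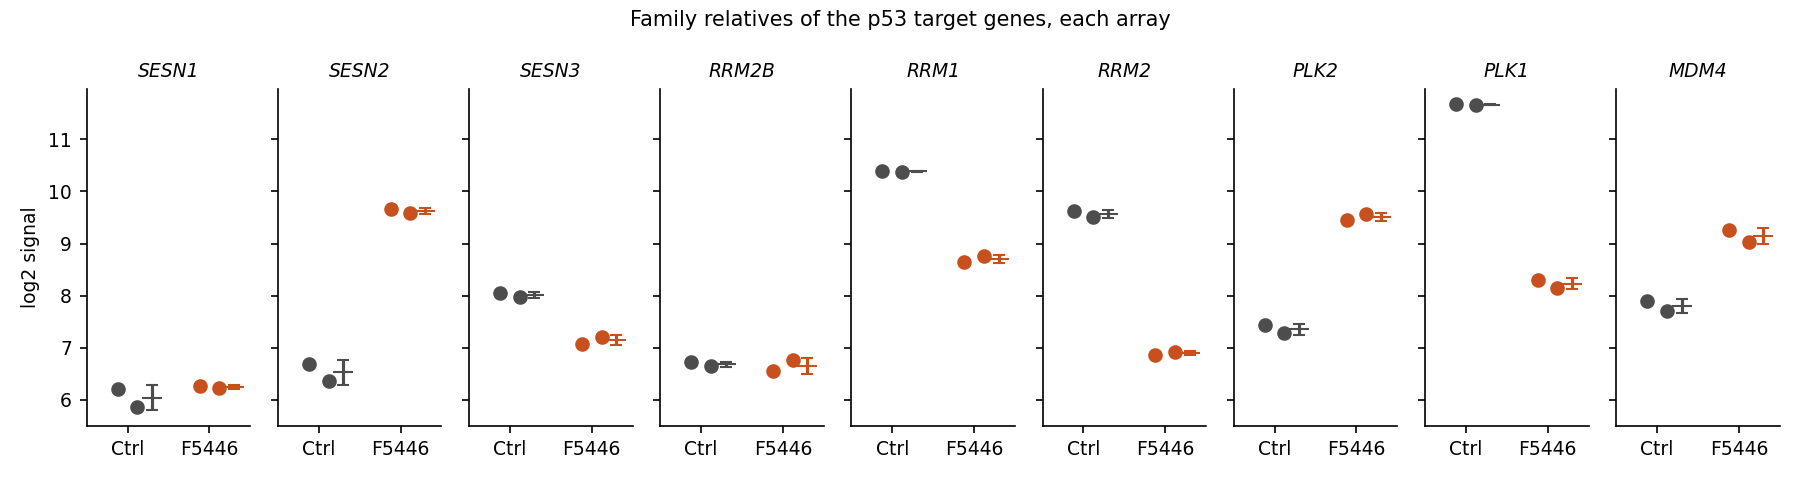
Log2 signal on each array (points; grey, untreated; orange, F5446; mean and SD of 2 arrays beside them) for SESN1 and RRM2B with their relatives and for PLK2, PLK1 and MDM4. SESN2, PLK2 and MDM4 are higher in both treated arrays, and SESN3, RRM1, RRM2 and PLK1 are lower.

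Of the 37 relatives listed for the 10 symbols, 17 were measured. Of the 17, 6 were higher, 6 lower and 5 not called, where 18.2% of all named genes were higher and 22.7% lower. SESN2, PLK2 and PLK3 are counted again below among the other p53 targets, and MDM4 among the p53 regulators. The median of the relatives, 0.02, had no settled sign, at -0.12 without control replicate 2, -0.0080 without F5446 replicate 2 and 0.15 with each array centred. Among the polo-like kinases both directions occurred. PLK2, a stress-induced kinase and p53 target, read 7.43 and 7.28 against 9.46 and 9.57 and rose 4.47-fold. PLK3, likewise stress-induced, rose 3.43-fold. PLK1, which drives mitosis, fell 10.8-fold and PLK4, which starts centriole duplication, fell 6.88-fold, with both treated arrays at or under 4.27, so its fall may be understated.

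Other known p53 targets, listed by role, were compared with the 5 genes. These lists, like those of relatives, regulators and stress factors, were drawn up with earlier results of these data known, so their counts are descriptive. Over 5 role lists, 38 of 64 genes were measured, of which 15 were higher, 6 lower and 17 not called, with a median of 0.29 (0.19 without control replicate 2). Over all named genes 18.2% were higher and 22.7% lower, with a median of -0.05. With each array centred 19 of the 38 were higher and 6 lower, with a median of 0.42. Over all 14884 named genes 3420 were then higher and 2735 lower, with a median of 0.078. In the cell cycle arrest list, all 5 measured genes were higher (4 without F5446 replicate 2; median 1.67): PLK2, PLK3, E2F7 (3.19-fold), which represses cell cycle genes, SFN (14-3-3 sigma) and CCNG1 (cyclin G1). CDKN1A, the main arrest target, had no named probe set, as had GADD45A. In the apoptosis list 5 of 10 were higher and 2 lower (median 0.23, or 0.15 without F5446 replicate 2 and 0.36 with each array centred). PMAIP1 (NOXA) rose 8.43-fold (log2 fold change 3.08), AEN, an apoptosis-linked nuclease, 3.31-fold and the receptor gene EDA2R 3.16-fold. EDA2R was dim in control cells, at 4.41 and 4.68. In contrast APAF1, the apoptosome scaffold, fell 1.76-fold and PIDD1 1.57-fold. BAX rose 1.66-fold, and 6 genes of this list, FAS among them, were not measured.

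In the metabolism and autophagy list, nearest in function to SESN1 and TP53I3, 1 of 6 was higher and 2 lower. With each array centred, 3 were higher and 2 lower. Among all named genes 18.2% were higher and 22.7% lower, or 3420 and 2735 of 14884 genes with each array centred. The list median was 0.25, or 0.37 with each array centred and 0.11 without F5446 replicate 2. SESN2 was the gene that rose, CMBL, a hydrolase, fell 2.28-fold and GPX1, the glutathione peroxidase, fell 1.43-fold. The call of GPX1 was lost without control replicate 1 (adjusted p = 0.060) or without F5446 replicate 2 (adjusted p = 0.070). Of 2 measured DNA repair targets, POLK, a translesion polymerase, rose 1.60-fold, but not when its second, dimmer probe set was averaged in (adjusted p = 0.085), and ASCC3 was not called. Among the 15 remaining targets 3 were higher and 2 lower, or 5 and 2 with each array centred, beside the same values over all named genes. Their median of 0.11 depended on single arrays, at 0.19 without control replicate 1, 0.04 without control replicate 2, 0.26 without F5446 replicate 1 and -0.04 without F5446 replicate 2, and was 0.24 with each array centred. The receptor tyrosine kinase gene EPHA2 rose 5.05-fold, SERTAD1 2.44-fold and CSF1 1.47-fold, while KITLG, the ligand of KIT, fell 2.46-fold and NINJ1 fell 1.57-fold. Both treated arrays of KITLG (4.07 and 4.38) lay under 4.43, so its fall may be understated. CSF1 missed the threshold without control replicate 2, F5446 replicate 1 or F5446 replicate 2 (adjusted p from 0.051 to 0.075).

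**Figure D4:**
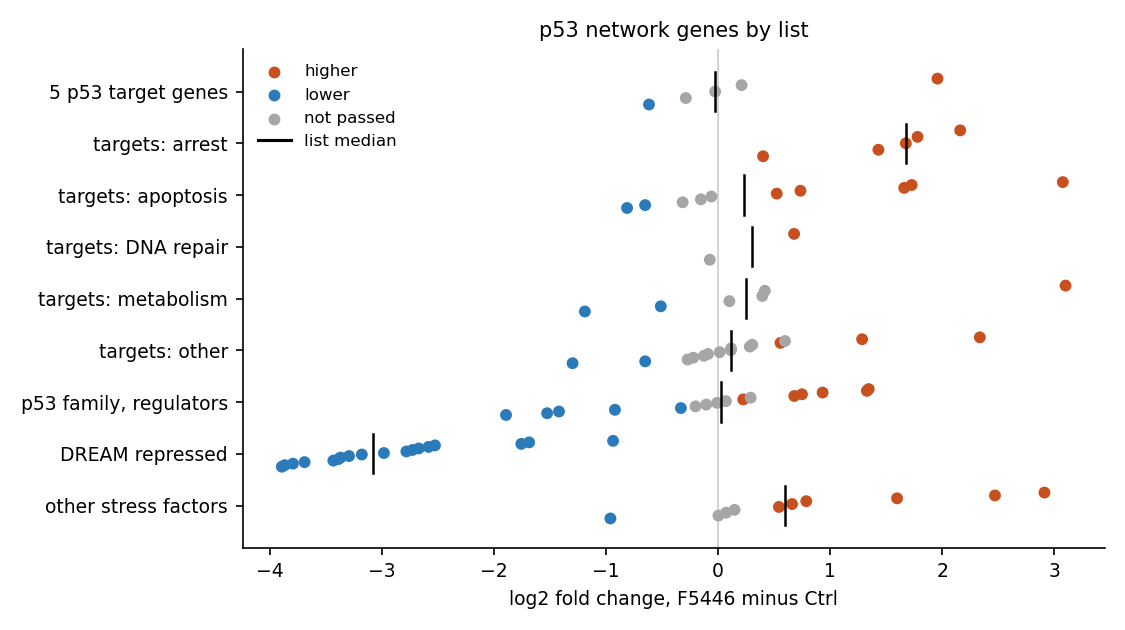
Log2 fold change (F5446 minus control) of each measured gene of the p53 network, by list (points; orange, higher; blue, lower; grey, not past an adjusted p of 0.05; vertical line, list median). The 5 arrest targets lie at 0.40 or above, the DREAM-repressed genes at -0.94 or below, and the 5 p53 target genes on both sides of 0.

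Of 24 genes of the p53 family and its regulators, 16 were measured. Of the 16, 6 were higher and 5 lower, against 18.2% and 22.7% of all named genes. With each array centred the counts were 8 and 4, against 3420 and 2735 of all 14884 named genes. The median of the 16, 0.03, had no settled sign, at 0.11 without control replicate 1, 0.05 without F5446 replicate 1, 0.01 without F5446 replicate 2, -0.03 without control replicate 2 and 0.16 with each array centred. Besides MDM4, the deacetylase gene SIRT1 rose 2.51-fold and the coactivator gene CREBBP 1.91-fold. The kinase genes CHEK1, HIPK2 and CHEK2, which act on p53, fell 3.71-fold, 2.88-fold and 2.68-fold. TP73, the p53 relative that can bind the same sites, read 4.97 and 5.05 in control arrays and 4.06 and 4.12 in F5446 arrays. It fell 1.89-fold (limma adjusted p = 0.0010), to levels under 4.43, so this fall may be understated. TP63 and ATM were not measured.

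Genes that active p53 can lower through p21 and DREAM fell without exception among those measured. Of these, 18 of 18 were lower, against 22.7% of all named genes. Their median was -3.08, against -0.05 over all named genes. This list too was drawn up with earlier results of these data known, so both contrasts are descriptive only. Whether p53 takes part in the fall of these genes was not tested. CCNA2 (cyclin A2) fell 14.9-fold, BIRC5 (survivin) 14.6-fold and NEK2 13.9-fold. These genes are expressed in dividing cells, and RRM2, PLK1 and PLK4 stand on this list as well as among the relatives. Of 10 measured stress transcription factors other than p53, 6 were higher and 1 lower, against 18.2% and 22.7% of all named genes. The number higher was 5 without the intensity trend or with all probe sets in the fit, and 7 with each array centred. Their median was 0.60, or 0.78 without control replicate 1 and 0.43 without control replicate 2. DDIT3 (CHOP), ATF3 and NFE2L2 (NRF2) rose 7.52-fold, 5.54-fold and 3.02-fold. The FOXO genes did not move together: FOXO4 fell 1.95-fold, FOXO1 rose 1.72-fold and FOXO3 was not called. Whether any of these factors takes part in the change of GDF15 or SESN2 was not tested.

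Of 9 measured markers of colon epithelium, 8 were above 4.43 on every array, as were 9496 of all 14884 named genes. A signal above this limit, the median over all probe sets, does not by itself show that a marker is expressed. The mean log2 signal of the 9 markers was 7.83 and 7.92 in control arrays and 7.15 and 7.12 in F5446 arrays. Of these 9, 5 were lower and 1, KRT19, was higher. Among all named genes 22.7% were lower and 18.2% higher, which is the comparison for the other marker counts too. VIL1 (villin) fell 14.7-fold, from 10.35 and 10.23 to 6.37 and 6.47, and without it, a choice made after its values were seen, the mean of the other 8 was 7.51 and 7.63 in control arrays and 7.25 and 7.20 in F5446 arrays. KRT18 fell 2.16-fold and EPCAM 1.69-fold. Of 5 immune markers 3 were above the limit on every array and their mean ranged from 5.04 to 5.23 in control and from 4.88 to 4.91 in F5446 arrays, with CD4 as the only one called (lower). Of 4 stromal and endothelial markers none was above the limit on every array. Their mean ranged from 4.15 to 4.16 in control and from 3.50 to 3.58 in F5446 arrays, with LUM as the only one called (lower). LUM read 7.04 and 7.03 in the control arrays, above the limit. It fell 8.12-fold (log2 fold change -3.02), to levels under 4.43, so this fall may be understated. VWF, DCN and PECAM1 had log2 fold changes of 0.42, 0.12 and 0.02, so the lower mean came from LUM. The part of these shifts in the values of the p53 target genes was not tested.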

How the data were processed

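Total RNA of SW620 cells was labelled as sense-strand cDNA and hybridised to 4 single-colour arrays, per the labels' protocols. Mouse is entered as organism in the sample records; SW620 is a human line and the platform annotation lists human genes, which were used. The authors deposited log2 signals, 1 value for each of 53617 probe sets, with the log2 scale inferred here: the highest value, 13.8, exceeds 11.09, the natural log of a 16-bit range. Partek is named in the submitters' processing notes, with the background correction, normalization and summary not given in the sources used here. A single gene symbol was available for 16098 probe sets; the other 37519 are unnamed here. A gene with several named probe sets was represented by the one of highest mean over the 4 arrays.

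All 14884 named genes entered 1 linear model in limma 3.58.1 (R 4.3.3) with a term for treatment and moderated variances that follow intensity. P-values are two-sided, with Benjamini-Hochberg adjustment over these genes. The model was tested on simulated data. Array medians over all probe sets ran from 4.40 to 4.44. Over the named genes they were 5.64 and 5.64 in control arrays and 5.50 and 5.52 in F5446 arrays. With 2 arrays a group, their number limits the precision. The p53 target genes and the lists were chosen with earlier results of these data known. Named are all measured p53 target genes, the 3 largest rises and falls past the threshold in each list other than the cell type markers, and a fixed set of family members; others were named after their values were seen. The alternatives tried were 2 scalings, a filter on dim genes, 2 variance models, probe set averaging, all probe sets, a replicate block and each array left out. Genomic positions and sequences were not used here.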

Additional observations from a re-analysis of the deposited data

How the results depend on the processing

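GDF15 was higher and TP53I3 lower past the threshold in all 12 alternatives, with log2 fold changes from 1.89 to 2.08 and from -0.64 to -0.49 and adjusted p of at most 0.00024 and 0.014. SESN1 (0.04 to 0.38) and TP53INP1 (-0.33 to -0.16) kept their sign and passed in none, with adjusted p of at least 0.060 and 0.074. RRM2B, at -0.03, was 0.10 with each array centred and 0.11 after quantile normalization, and ran from -0.14 to 0.082 with 1 array left out (0.011 without control replicate 1 and 0.082 without F5446 replicate 1). It passed in none of these, so no direction can be given. Testing all 53617 probe sets, 37519 of them unnamed here, gave 6274 higher and 5483 lower in place of 2714 and 3372. The balance thus turned toward higher, for a reason that was not tested. Of the 14884 named genes, 2167 were higher and 2692 lower in that fit, and the calls of the 5 genes were the same. The replicate numbers gave no pairing that could be used: the deviations of same-numbered arrays correlated at 0.04 over 14884 genes. With the replicate block GDF15 had an adjusted p of 9.80e-06, TP53I3 of 0.0020, SESN1 of 0.26, TP53INP1 of 0.21 and RRM2B of 0.89, so the block changed no call of these. Signal over background limits genes near or under 4.43 on some arrays, among them TP53INP1, TP73, KITLG, PLK4, EDA2R and LUM, and 2 arrays a group limit every interval. With groups of 2, outlying arrays could not be tested for.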
